A study of Mus musculus with 51 samples.

Results

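Neutrophils labelled JUNB-/- were compared with wild-type neutrophils 2 h after zymosan, in the cultured ER-Hoxb8 model. The comparison took the 2 RNA-seq libraries of JUNB-/- cells given zymosan and the 2 libraries of the wild-type cells given zymosan that were counted in the same table (set 1), 4 of the 51 samples of the series, and groups were taken from the labels. Both lines were mouse ER-Hoxb8 progenitors, which multiply as long as estrogen keeps the Hoxb8 fusion protein active and mature once it is withdrawn. All were differentiated for 5 days with stem cell factor and 20 ng/ml G-CSF and then given zymosan, a yeast cell wall particle, at 50 µg/ml for 2 h. The matched vehicle groups were JUNB-/- and wild-type cells given DMSO for 2 h, again with 2 libraries each. A second set of wild-type libraries, with its own zymosan and DMSO groups and no library shared with set 1, was used to define which genes zymosan induced. The spread between replicates was estimated over all 12 libraries of set 1, which also include CEBPB-/- cells given zymosan or DMSO. That of set 2 was estimated over its 12 libraries, which also include IRF5-/- and RELB-/- cells. The labels do not say what was deleted at Junb or how many clones the JUNB-/- line comprises. Nor do they say whether the 2 libraries of a group came from separate cultures. The p-values here therefore measure only the spread between replicate libraries of these sets.

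JunB is a basic leucine zipper protein of the AP-1 family. It pairs with Fos or other partners on short TGACTCA-type sites, and with ATF or CREB-type partners on the related TGACGTCA site. In myeloid cells Junb is switched on within the first hours of stimulation together with Fos, Egr and Nr4a genes, and AP-1 acts beside NF-kB on genes for cytokines and chemokines. Zymosan is sensed by Dectin-1 (Clec7a), Dectin-2 (Clec4n) and TLR2, which signal through Syk and Card9 or through MyD88.

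Libraries held 27.1 and 32.4 M read pairs in JUNB-/- cells and 22.2 and 28.0 M in wild-type cells after zymosan. Read pairs were found for 15521 and 15826 genes in the JUNB-/- libraries against 16907 and 17447 in wild type, and mitochondrial transcripts took 1.32% and 1.34% of read pairs against 0.539% and 0.499%. Levels below are CPM (read pairs per 1 M read pairs of the library) scaled by TMM, a method that assumes most genes do not differ. The TMM factors were 0.691 and 0.685 in JUNB-/- libraries and 0.984 and 0.993 in wild type, so the choice of scaling matters: by total counts alone the median difference of all genes was -0.53 on the log2 scale, against -0.01 with TMM.

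Junb RNA was not lost in the libraries labelled JUNB-/-. Junb (ENSMUSG00000052837, chromosome 8, 84974484 to 84978718, minus strand, GRCm38) had 2084 and 2158 CPM in JUNB-/- cells and 2381 and 2230 CPM in wild-type cells after zymosan. The groups did not overlap, but the difference was small (log2 difference -0.12 ± 0.04 SE, adjusted p = 0.0054, edgeR quasi-likelihood test), and it no longer passed when JUNB-/- replicate 1 (adjusted p = 0.0763) or wild-type replicate 1 (adjusted p = 0.111) was left out. It was -0.19 with RLE scaling and -0.64 by total counts. With DMSO the gene had 486 and 511 CPM in JUNB-/- cells and 851 and 948 CPM in wild type (-0.85). Counts per gene cannot show whether these transcripts encode JunB protein, so the genotype rests on the label alone, and every direction given here for JUNB-/- cells depends on it.

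Of 12899 genes tested, 5040 (39.1%) were higher and 4829 (37.4%) lower in JUNB-/- cells after zymosan at an adjusted p under 0.05. At 2-fold or more, 2034 genes (15.8%) were higher and 2986 (23.1%) lower. With counts scaled by library total the split was 2829 higher and 7328 lower, and 929 and 4459 at 2-fold. Replicates lay close together (common coefficient of variation 0.0278), and with 76.5% of all genes called a call by itself says little about a gene. Counts of called members in the lists below are to be read against these shares of all genes. In such bulk libraries, fewer cells of a type and less RNA per cell cannot be told apart.

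The 10 largest increases and decreases were taken among genes whose log2 CPM averaged at least 4 over the 4 zymosan libraries, so genes at lower levels with larger differences are not ranked among them. Atf5, a stress-response transcription factor, had 304 and 324 CPM in JUNB-/- cells and 17.7 and 16.7 CPM in wild type (log2 difference 4.19 ± 0.06, adjusted p = 7.5e-53). Trib3, a pseudokinase induced by the same response, had 53.5 and 51.5 CPM against 3.57 and 4.35 CPM in wild type. Chac1, which degrades glutathione and lies below that minimum level, had 28.5 and 30.2 CPM in JUNB-/- cells against 2.79 and 2.16 CPM in wild type. These 3 genes were also higher in JUNB-/- cells with DMSO, by 3.32, 3.21 and 2.05 on the log2 scale. Over the whole list of 18 stress kinase and stress response genes, however, 10 were higher and 8 lower, and Hspa1a (Hsp70) and the quinone reductase Nqo1 were among the lower ones (-6.86 and -1.96).

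Ceacam10, a secreted member of the carcinoembryonic antigen family, had 245 and 251 CPM in JUNB-/- cells and 13.2 and 15.5 CPM in wild type (4.10 ± 0.06). Retnlg, a resistin-like protein of neutrophils, had 5533 and 5879 CPM in JUNB-/- cells against 455 and 461 CPM in wild type (3.64 ± 0.05). S1pr4, a sphingosine-1-phosphate receptor of leukocytes, had 63.9 and 61.8 CPM against 5.95 and 5.94 CPM in wild type. In each of these both JUNB-/- libraries lay far above both wild-type libraries. Tinagl1, an extracellular matrix protein, Ankrd22, the interferon-inducible family members Ifit1bl2 and Ifi206, and the amino acid transporter subunit Slc7a7 completed the 10 largest increases at that minimum level, at 3.54 to 4.09 on the log2 scale. Ifit1bl2 and Ifi206 have close paralogs, and only uniquely mapped pairs were counted, so their counts are uncertain.

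The 10 largest decreases were taken with the same minimum level. Zc3h12c, an RNA-binding protein of the Regnase family, had 3.10 and 2.30 CPM in JUNB-/- cells and 633 and 636 CPM in wild type (log2 difference -7.89 ± 0.07, adjusted p = 8.9e-61). Areg, the EGF receptor ligand amphiregulin, had 1.07 and 0.946 CPM in JUNB-/- cells and 200 and 210 CPM in wild type (-7.67 ± 0.10, adjusted p = 3.7e-53). Emp1, an epithelial membrane protein, had 3.47 and 2.39 CPM against 99.4 and 116 CPM in wild type (-5.22 ± 0.11). Zymosan raised both Zc3h12c and Areg in the separate wild-type libraries of set 2, by 4.48 and 6.08 on the log2 scale, and Emp1 by 1.10.

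Lpl, lipoprotein lipase, had 1.07 and 0.946 CPM in JUNB-/- cells and 159 and 173 CPM in wild type (-7.37 ± 0.11). Pla2g7, which inactivates platelet-activating factor, had 1.87 and 2.12 CPM against 219 and 244 CPM in wild type (-6.85 ± 0.09). Both were hardly moved by zymosan in set 2 (0.14 and 0.29 on the log2 scale), and both were also low in JUNB-/- cells with DMSO. There Lpl had 1.01 and 0.964 CPM against 118 and 112 CPM in wild type, and Pla2g7 had 0.537 and 0.371 CPM against 156 and 155 CPM. The remaining genes of the 10 largest decreases at that minimum level were the cytoskeletal regulator Basp1, the proteoglycan Gpc3, the adhesion receptor Adgre5 (CD97), the scaffold Ahnak and the Schlafen family member Slfn5, at -6.40 to -5.06. In all 10, both JUNB-/- libraries lay below both wild-type libraries.

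**Figure D1:**
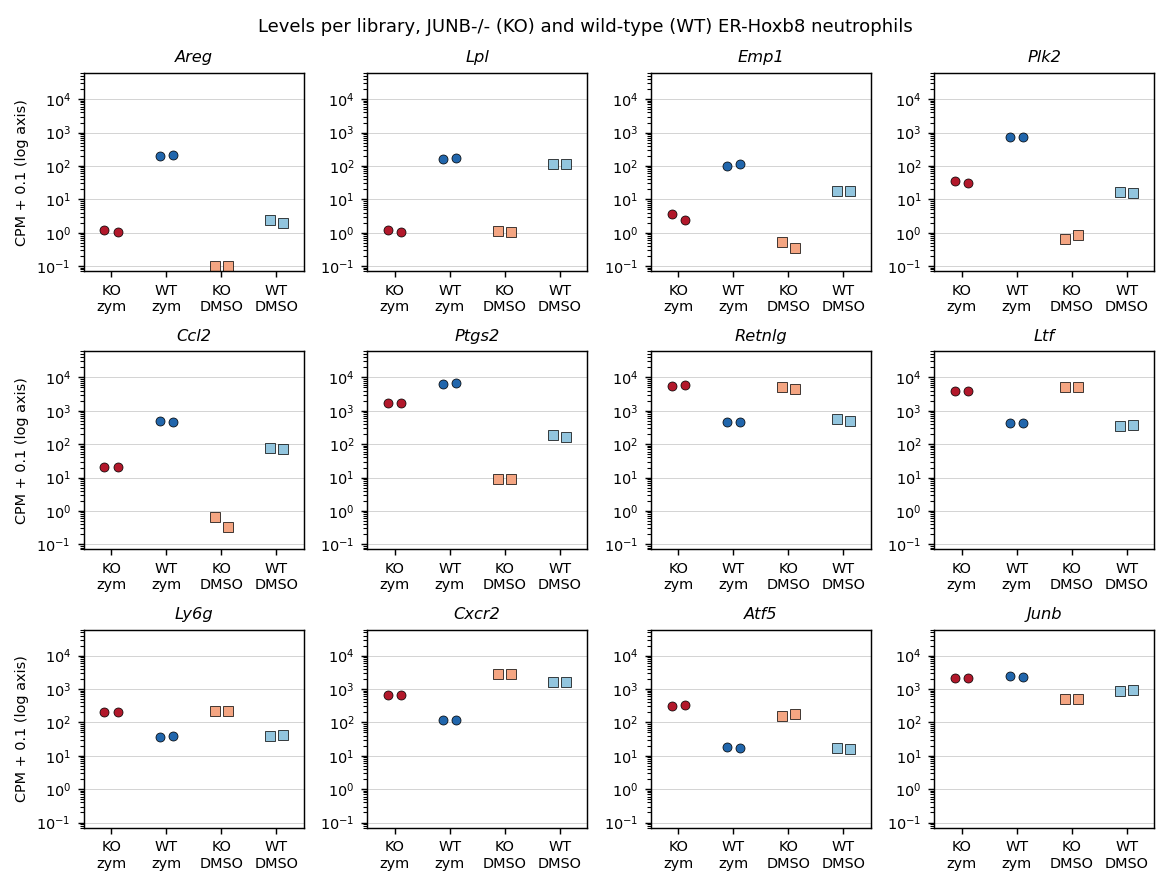
TMM-scaled CPM plus 0.1 (vertical log axis) of 12 genes in each of the 2 libraries of JUNB-/- (KO) and wild-type (WT) cells after zymosan (zym) and with DMSO; each point is 1 library, and a point at 0.1 is a library at 0. Areg, Lpl, Emp1, Plk2, Ccl2 and Ptgs2 lie lower in JUNB-/- cells, Retnlg, Ltf, Ly6g, Cxcr2 and Atf5 lie higher, and Junb is at 2084 and 2158 CPM in JUNB-/- cells against 2381 and 2230 CPM in wild type after zymosan.

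Some genes were not detected at all in JUNB-/- cells. There were 37 genes with 0 counts in all 4 JUNB-/- libraries, DMSO included, and a mean of at least 1 CPM in wild type after zymosan, against 1 gene with the opposite pattern, Ndufa4l2, which had 6.36 and 5.72 CPM in JUNB-/- cells and 0 counts in wild type after zymosan. Marcks, an actin-binding substrate of protein kinase C, had 0 counts in JUNB-/- cells and 240 and 226 CPM in wild type, at least 3170-fold lower against a floor of 3 counts over the JUNB-/- group. Alcam, an adhesion molecule, had 0 counts against 81.5 and 83.2 CPM in wild type, at least 1120-fold lower. Marcks, Alcam and Ndufa4l2 were named after their values were seen. Marcks and Alcam were present in the wild type of set 2, at a mean of 320 and 64.8 CPM after zymosan (scaled separately). Of the 37, 21 were present there at 1 CPM or more, and 6 were not tested in set 2. In the CEBPB-/- libraries of set 1, 12 of the 37 also had 0 counts, and 9 had a mean of at least 1 CPM after zymosan. In those libraries Marcks had 53.9 and 51.7 CPM and Alcam 65.5 and 65.3 CPM after zymosan. The floor covers counting error only.

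Promoter sequences were read for the sites that AP-1 dimers bind. The 250 bases before the annotated start are given for Junb, as the targeted gene, and for Areg, Emp1 and Lif. Those of Areg and Emp1 were the windows with a match among the 10 largest decreases. Lif had the most negative interaction below among genes whose log2 CPM averaged at least 4, and its window also holds a match. The bases were taken from RefSeq (GRCm38.p6) and run 5′ to 3′ on the strand of the gene. Capitals mark TGACTCA on either strand (TGAGTCA when read on the other) or the palindrome TGACGTCA.
Junb, chr8:84978749-84978998, minus strand: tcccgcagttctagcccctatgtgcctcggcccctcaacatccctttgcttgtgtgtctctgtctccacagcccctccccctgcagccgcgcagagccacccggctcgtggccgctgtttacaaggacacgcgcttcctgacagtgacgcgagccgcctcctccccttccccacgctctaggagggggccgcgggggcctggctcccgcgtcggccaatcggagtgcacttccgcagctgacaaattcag
Areg, chr5:91139349-91139598, plus strand: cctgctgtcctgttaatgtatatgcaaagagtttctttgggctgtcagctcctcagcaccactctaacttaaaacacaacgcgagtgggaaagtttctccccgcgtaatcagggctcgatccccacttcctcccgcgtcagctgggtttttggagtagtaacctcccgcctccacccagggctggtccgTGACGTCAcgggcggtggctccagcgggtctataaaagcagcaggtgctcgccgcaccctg
Emp1, chr6:135362681-135362930, plus strand: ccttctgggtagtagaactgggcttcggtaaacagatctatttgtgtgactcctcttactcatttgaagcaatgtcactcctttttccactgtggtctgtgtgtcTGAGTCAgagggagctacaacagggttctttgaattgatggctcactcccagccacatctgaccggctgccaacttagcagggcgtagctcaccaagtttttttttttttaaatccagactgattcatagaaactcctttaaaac
Lif, chr11:4257318-4257567, plus strand: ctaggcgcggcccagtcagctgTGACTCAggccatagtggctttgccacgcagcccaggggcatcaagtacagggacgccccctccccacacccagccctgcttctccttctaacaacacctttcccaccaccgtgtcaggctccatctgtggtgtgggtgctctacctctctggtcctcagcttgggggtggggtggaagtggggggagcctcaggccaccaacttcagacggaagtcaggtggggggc
The TGACGTCA match of Areg starts 61 bases before the annotated start, and the TGACTCA-type matches of Emp1 and Lif start 145 and 228 bases before it. The Junb window holds neither sequence. Of the 10 largest decreases 8 genes had a RefSeq window, and of their 10 windows 1 held TGACTCA and 1 TGACGTCA. Of the 18 windows of the 10 largest increases 1 held TGACTCA, that of Ankrd22, and none TGACGTCA. Windows were not read for every named gene. Among the other named genes with a window, TGACTCA on either strand was in those of Cxcl10, Nfkbie and Padi4, which were higher in JUNB-/- cells. It was also in those of C3ar1, Il1a, Il1rn and Itgax, which were lower. TGACGTCA was in the windows of Plk2, Mcm5 and Maff, which were lower as well (-4.49, -2.89 and -0.29). Across windows of 300 bases (250 before and 50 after the start), TGACTCA was present in 4.83% of the 2689 windows of genes 2-fold lower in JUNB-/- cells, in 4.78% of the 1862 windows of genes 2-fold higher, and in 4.00% of the 11972 windows of all genes tested. TGACGTCA was present in 2.53%, 2.47% and 3.16% of the same windows. Among genes that zymosan induced at least 2-fold in set 2, TGACTCA was in 9.41% of the 393 windows of those 2-fold lower in JUNB-/- cells, in 6.70% of the 224 windows of those 2-fold higher, and in 6.12% of all 1766 windows. TGACGTCA was in 4.83%, 1.79% and 4.64% of the same windows. A match is a string in the window, not a bound site, and no test was made of these shares.

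Most chemokine genes were lower in JUNB-/- cells after zymosan. Of 15 chemokine genes measured, 14 were lower and 1 was higher, with a median log2 difference of -2.60, against 37.4% of all genes lower and a median of -0.01. Ccl2, which recruits monocytes, had 20.0 and 20.1 CPM in JUNB-/- cells and 499 and 462 CPM in wild type (-4.58 ± 0.06, adjusted p = 8.4e-56). Its neighbour Ccl7 had 0.748 and 0.315 CPM against 94.6 and 101 CPM in wild type. Ccl4, which attracts T cells and monocytes, had 95.0 and 97.6 CPM against 935 and 943 CPM in wild type (-3.29 ± 0.04), and Ccl5 had 1.28 and 1.49 CPM against 8.09 and 9.0 CPM. The neutrophil chemoattractant Cxcl2 had 8978 and 9458 CPM in JUNB-/- cells and 17393 and 17493 CPM in wild type (-0.92 ± 0.03). The exception was Cxcl10, a ligand of Cxcr3, with 362 and 369 CPM in JUNB-/- cells against 111 and 109 CPM in wild type (1.74 ± 0.04). Alongside these, 11 of 13 monocyte and macrophage markers and all 11 measured markers of eosinophils, basophils and mast cells were lower, and their part in the chemokine and cytokine results was not tested.

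Of 23 other cytokine and growth factor genes, 16 were lower and 5 higher (median -1.07). Besides Areg, the list holds 2 other EGF receptor ligands, and both were lower. Ereg (epiregulin) had 8.97 and 8.97 CPM in JUNB-/- cells against 119 and 125 CPM in wild type, and Hbegf had 1.07 and 0.676 CPM against 8.96 and 9.07 CPM. Csf2, which encodes GM-CSF, had 0.214 and 0.270 CPM in JUNB-/- cells against 14.1 and 16 CPM in wild type (-5.92 ± 0.26). Tnf was less affected, with 4201 and 4134 CPM in JUNB-/- cells and 8896 and 8604 CPM in wild type (-1.07 ± 0.03). Ebi3, a subunit of IL-27 and IL-35, and Il15 were 2-fold higher, by 1.61 and 1.03.

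In the IL-1 family 9 of 13 genes were lower and 3 higher (median -1.17). Il1a had 1036 and 1034 CPM in JUNB-/- cells and 3484 and 3333 CPM in wild type (-1.72 ± 0.03, adjusted p = 2.1e-46). Il1b had 4639 and 4578 CPM against 10449 and 10248 CPM in wild type (-1.17 ± 0.03), and the receptor antagonist Il1rn had 4171 and 4229 CPM against 9642 and 9428 CPM (-1.18 ± 0.03). Of these 3 genes Il1a had the larger decrease. The receptor subunits Il1rap and Il1rl1 were also lower (-1.22 and -1.20), whereas the higher genes were the decoy receptor Il1r2 (0.68), the ligand Il1f9 (0.56, and 0.04 without passing by total counts) and the IL-18 receptor subunit Il18rap (1.02).

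Among the 14 genes of eicosanoid and histamine synthesis, 6 were lower and 7 higher (median 0.34 with TMM and -0.18 by total counts, where 7 were lower and 4 higher). Ptgs2, the inducible cyclooxygenase, had 1682 and 1708 CPM in JUNB-/- cells and 6515 and 6826 CPM in wild type (-1.98 ± 0.03, adjusted p = 1.7e-48). Alox15 had 1.6 and 1.13 CPM against 30.9 and 30.5 CPM in wild type. Alox5ap, which presents arachidonate to 5-lipoxygenase for leukotriene synthesis, moved the other way, with 2067 and 2063 CPM in JUNB-/- cells against 538 and 528 CPM in wild type (1.95 ± 0.03).

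**Figure D2:**
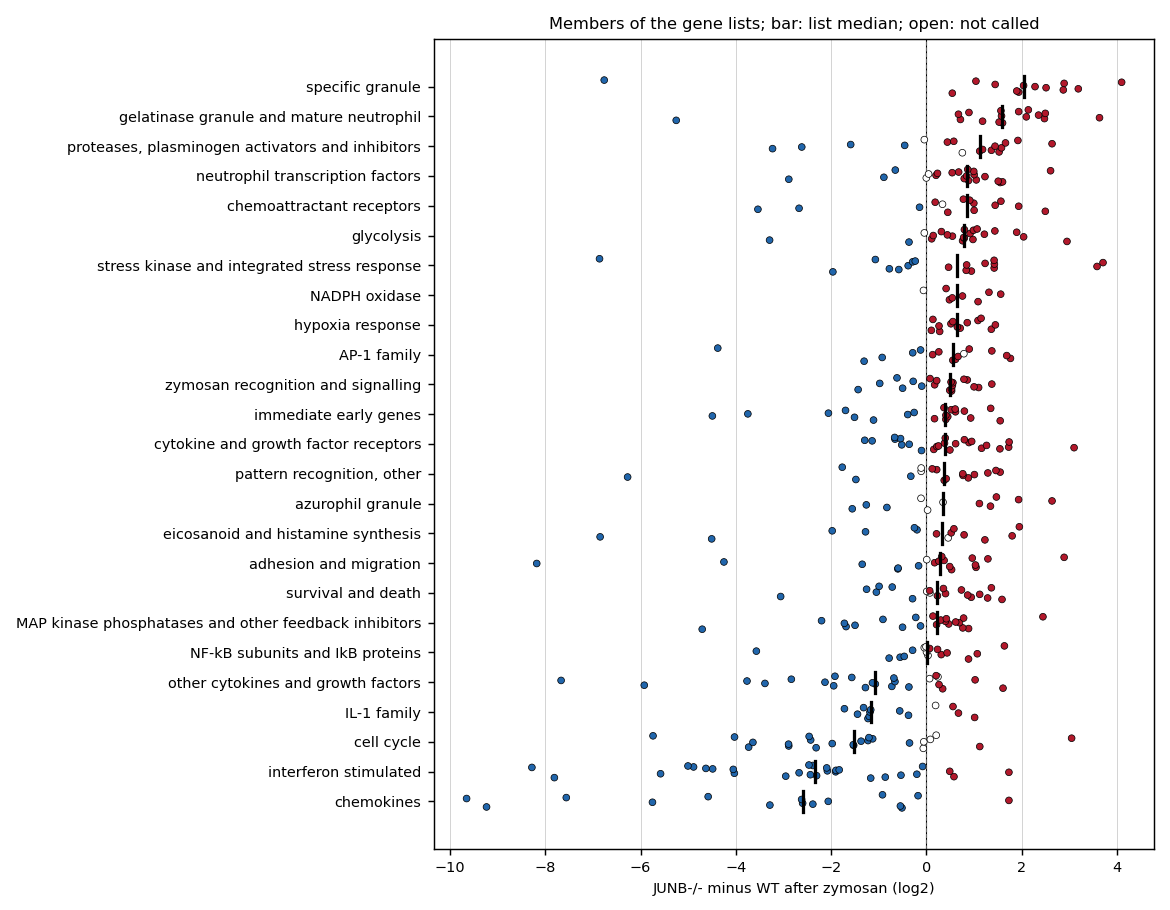
Log2 difference of JUNB-/- minus wild type after zymosan (horizontal axis) for the measured members of 25 gene lists, ordered by list median. Each point is 1 gene, red when higher, blue when lower and open when it did not pass an adjusted p under 0.05; black bars are list medians and the dashed line is the median of all genes at -0.01. Chemokines (-2.60) and interferon-stimulated genes (-2.34) lie lowest and specific granule genes (2.04) highest.

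Most interferon-stimulated genes of the list were lower: 25 of 28 were lower, 21 of them by 2-fold or more, with a median of -2.34. Among all genes 37.4% were lower and 23.1% 2-fold lower. Oasl2, an oligoadenylate synthetase-like protein, had 1.07 and 0.676 CPM in JUNB-/- cells and 41.1 and 41.3 CPM in wild type (-5.58 ± 0.14, adjusted p = 9.1e-40). Bst2 (tetherin) had 1.5 and 2.21 CPM against 45.5 and 47.7 CPM in wild type, and Ifit3 had 0.481 and 0.541 CPM against 15.7 and 17.4 CPM. Ifi205, a nucleic acid sensor family member with close paralogs, was lower as well (-4.89). With DMSO 25 of the 28 were lower too (median -2.64), against 41.1% of all genes. The 3 list genes that were higher after zymosan were Cxcl10, the transcription factor Irf1 (0.58) and the exonuclease Isg20 (0.49). By total counts Irf1 and Isg20 no longer passed (0.06 and -0.03). Outside the list, the interferon-inducible family members Ifit1bl2 (3.78) and Ifi206 (3.54), whose counts are uncertain as said above, were among the largest increases.

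Specific and gelatinase granule genes were mostly higher. Of 13 specific granule genes 12 were higher, 11 of them by 2-fold or more, and 1 was lower. Among all genes 39.1% were higher, 15.8% were 2-fold higher and 37.4% were lower. The list median was 2.04, and 1.52 by total counts. Ltf, lactoferrin, had 3912 and 3834 CPM in JUNB-/- cells and 421 and 426 CPM in wild type (3.19 ± 0.03, adjusted p = 3.7e-58). Cd177, a surface glycoprotein of neutrophils, had 481 and 479 CPM against 63.4 and 65.4 CPM in wild type (2.90 ± 0.04). The lower gene was Ear2, an RNase of eosinophils with near-identical relatives, at 0.587 and 0.270 CPM against 43.8 and 47.5 CPM. Of 16 genes of gelatinase granules and mature neutrophils 15 were higher (median 1.59), among them Ly6g, the surface antigen used to sort mouse neutrophils, with 211 and 210 CPM in JUNB-/- cells against 37.0 and 38.2 CPM in wild type (2.48 ± 0.05). Padi4, which citrullinates histones during extracellular trap formation, had 795 and 781 CPM against 154 and 153 CPM. Arg1 was the lower gene, with 0.0534 and 0.0901 CPM against 2.74 and 3.17 CPM. A separate list of 11 neutrophil markers, which overlaps these lists in part, was higher in all 11 genes with TMM and in 10 by total counts, and its part in these results was not tested.

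The azurophil granule list was mixed, with 5 of 11 higher and 3 lower (median 0.35 with TMM and -0.17 by total counts, where 5 were higher and 5 lower). Prtn3 (proteinase 3) had 70.0 and 71.4 CPM in JUNB-/- cells and 21.6 and 15.8 CPM in wild type, and Lyz2 was higher by 1.47, whereas Mpo had 2.67 and 2.61 CPM against 7.55 and 7.95 CPM. Of 17 proteases and inhibitors 11 were higher and 4 lower (median 1.12, and 0.60 with 9 higher and 5 lower by total counts). The inhibitor Serpinb1a had 110 and 122 CPM in JUNB-/- cells against 19.1 and 18.1 CPM in wild type, and the stefin Stfa2l1, which has close paralogs, was higher by 1.92. Plau (urokinase) and the metalloproteinase Mmp19 were lower, by -3.23 and -2.62. Of 8 NADPH oxidase genes 7 were higher and none lower (median 0.65, and 0.13 with 4 higher and 2 lower by total counts). The GTPases Rac2 and Rac1 and the cytosolic subunit Ncf1 were higher by 1.32, 1.09 and 0.76.

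Genes of zymosan recognition and signalling differed in both directions. Of 20 such genes 14 were higher and 6 lower with TMM (median 0.51), but 5 were higher and 9 lower by total counts (median -0.02). Tlr2 had 3907 and 3846 CPM in JUNB-/- cells and 1844 and 1775 CPM in wild type (1.10 ± 0.03, adjusted p = 8.8e-38). Its adaptor Myd88 had 604 and 592 CPM against 237 and 224 CPM in wild type (1.38 ± 0.04), and Bcl10, which links Card9 to NF-kB, was higher by 1.00. The 2 C-type lectins were lower: Clec4n had 294 and 302 CPM in JUNB-/- cells against 809 and 801 CPM in wild type (-1.43 ± 0.03), and Clec7a had 374 and 370 CPM against 591 and 549 CPM (-0.62 ± 0.04). Among 17 other pattern recognition genes 11 were higher and 4 lower (median 0.38 with TMM and -0.15 by total counts, where 7 were higher and 9 lower), with Tlr4 (1.55), the amplifying receptor Trem1 (1.46) and Nod1 (1.29) higher and the scavenger receptor Msr1 lower (-1.48).

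Chemoattractant receptors were mostly higher, with 10 of 14 higher and 3 lower (median 0.85, and 0.32 with 8 higher and 5 lower by total counts). Cxcr2, the receptor for Cxcl1 and Cxcl2, had 647 and 651 CPM in JUNB-/- cells and 114 and 115 CPM in wild type (2.50 ± 0.04, adjusted p = 1.2e-52). Fpr1, the formyl peptide receptor, had 6511 and 6567 CPM against 1701 and 1705 CPM in wild type (1.94 ± 0.03). The complement receptor C3ar1 had 2.19 and 3.69 CPM in JUNB-/- cells against 33.3 and 36.3 CPM in wild type, and the chemerin receptor Cmklr1 had 18.5 and 17.2 CPM against 111 and 116 CPM. Of 18 adhesion and migration genes 11 were higher and 6 lower (median 0.30 with TMM and -0.23 by total counts, where 5 were higher and 11 lower). The lower ones included the integrins Itgax (CD11c), with 2.35 and 2.25 CPM against 44.1 and 43.5 CPM, and Itga4 (-1.35), and Vcam1, with 2 and 0 read pairs in JUNB-/- cells against 15 and 16.1 CPM in wild type. Of 24 cytokine receptors 16 were higher and 8 lower (median 0.39 with TMM and -0.13 by total counts, where 10 were higher and 13 lower), with Tnfrsf1a (1.74), Ifngr2 (1.73) and Il13ra1 (1.55) higher and Il10ra lower (-1.29).

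AP-1 genes differed in both directions. Of 15 measured members of the family, Junb included, 9 were higher and 5, Junb among them, lower after zymosan. The median was 0.56 with TMM and 0.04 by total counts, where 5 were higher and 7 lower. Jun had 1306 and 1342 CPM in JUNB-/- cells and 521 and 499 CPM in wild type (1.38 ± 0.03, adjusted p = 1.4e-40). Fosl1, which encodes Fra-1, had 355 and 363 CPM against 100 and 110 CPM in wild type (1.77 ± 0.04), and Batf had 283 and 282 CPM against 95.4 and 80.6 CPM (1.69 ± 0.05). Jund, Fosl2, Fos and Mafk were higher by 0.90, 0.67, 0.61 and 0.56, and Mafg and Jdp2 by 0.26 and 0.13. By total counts Fos and Mafk did not pass (0.09 and 0.04), and Mafg and Jdp2 were lower (-0.26 and -0.39). Fosb had 42.7 and 43.4 CPM in JUNB-/- cells against 103 and 110 CPM in wild type (-1.31 ± 0.06), Atf3 had 277 and 272 CPM against 530 and 515 CPM (-0.93 ± 0.04), and Maff was lower by -0.29. Batf2 had 0.854 and 1.22 CPM in JUNB-/- cells and 0.595 and 0.612 CPM in wild type (adjusted p = 0.089).

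With DMSO the AP-1 list lay lower in JUNB-/- cells, 9 of 15 genes being lower and 4 higher (median -0.78), where 41.1% of all genes were lower and 35.4% higher. The interaction term, which tests whether the JUNB-/- minus wild-type difference itself differed between zymosan and DMSO, was positive for 13 of the 15 and negative for 1. Over all genes it was positive for 3629 (28.1%) and negative for 1990 (15.4%), and at 2-fold it was positive for 1149 (8.91%) and negative for 473 (3.67%). The split at any size became 2947 and 2649 with RLE scaling, which put the all-gene median of the interaction at -0.003 in place of 0.11. Fosl1 shows the pattern: it had 1.58 and 1.85 CPM in JUNB-/- cells against 2.92 and 2.96 CPM in wild type with DMSO, and its sign was the opposite after zymosan (interaction 2.55, adjusted p = 1.7e-19).

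NF-kB genes showed the same pattern. The list of NF-kB subunits and IkB proteins has 16 genes and counts among them Traf1, which is neither. After zymosan 7 of the 16 were higher, 5 lower and 4 not called. The median was 0.02, and -0.50 by total counts, where 3 were higher and 13 lower. With DMSO, however, 14 were lower and 2 higher, where 41.1% of all genes were lower and 35.4% higher. The interaction was positive for all 16, against 28.1% of all genes. Nfkbie, which encodes IkB epsilon, had 738 and 732 CPM in JUNB-/- cells and 358 and 342 CPM in wild type after zymosan, while with DMSO it had 17.5 and 16 CPM against 57.3 and 65.0 CPM (interaction 2.94, adjusted p = 7.2e-41). Relb had 470 and 477 CPM against 260 and 253 CPM in wild type after zymosan and 50.6 and 52.2 CPM against 78.5 and 82.5 CPM with DMSO (interaction 1.53). Bcl3 was higher after zymosan by 1.64. Traf1, a TNF receptor adaptor, stayed lower, with 7.26 and 6.13 CPM in JUNB-/- cells against 77.8 and 80.2 CPM in wild type. Icam1 and Tnfaip3 (A20), 2 textbook NF-kB targets chosen after their values were seen, had interactions of 5.54 and 3.02: Icam1 reached 2122 and 2102 CPM against 1648 and 1609 CPM in wild type after zymosan (0.37 with TMM and -0.15 by total counts), with 3.93 and 4.04 CPM against 141 and 145 CPM with DMSO.

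Immediate early and feedback genes were divided. Of 20 immediate early genes 12 were higher and 8 lower after zymosan, 6 of the 8 being 2-fold lower. Among all genes 39.1% were higher and 37.4% lower. The list median was 0.39 with TMM and -0.13 by total counts, where 5 were higher and 11 lower. With DMSO 15 were lower (median -1.89), against 41.1% of all genes. The interaction was positive for 16 of 20, against 28.1% of all genes. Plk2, a Polo-like kinase, had 34.3 and 31.2 CPM in JUNB-/- cells and 741 and 731 CPM in wild type after zymosan (-4.49 ± 0.05, adjusted p = 2.5e-57). Its difference with DMSO was as large (-4.63), and the interaction did not pass. The orphan nuclear receptors Nr4a2 and Nr4a3 were lower, by -3.75 and -2.06, and Egr2 by -1.70. Egr3 had 312 and 327 CPM in JUNB-/- cells against 209 and 209 CPM in wild type, 0.61 higher with TMM and 0.09 higher, not passing the test, by total counts. Of 21 phosphatases and feedback inhibitors 12 were higher and 9 lower (median 0.22 with TMM and -0.31 by total counts, where 6 were higher and 13 lower). Zfp36l2, which speeds the decay of AU-rich mRNAs, had 274 and 283 CPM against 51.5 and 50.4 CPM in wild type (2.45 ± 0.04), and the MAP kinase phosphatase Dusp4, the Ras pathway inhibitor Spred1 and Socs1 were lower (-1.72, -1.5 and -0.91).

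**Figure D3:**
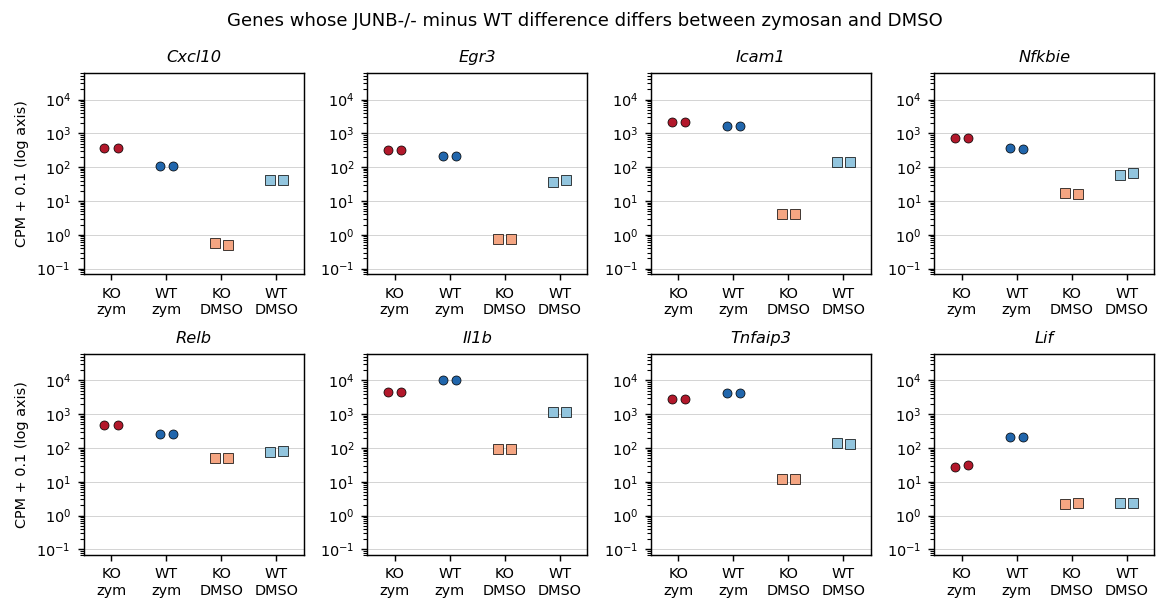
TMM-scaled CPM plus 0.1 (vertical log axis) of 8 genes in each library of JUNB-/- (KO) and wild-type (WT) cells after zymosan (zym) and with DMSO; each point is 1 library. Cxcl10, Nfkbie and Relb are higher in JUNB-/- cells after zymosan and lower with DMSO, as are Egr3 and Icam1 with TMM scaling (by total counts Icam1 is lower and Egr3 does not pass), Il1b and Tnfaip3 are lower in both with a wider gap with DMSO, and Lif is lower only in the zymosan pair (27.4 and 31.9 CPM in JUNB-/- cells against 213 and 212 CPM in wild type).

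The JUNB-/- difference after zymosan was in large part present with DMSO. Of the 2986 genes 2-fold lower after zymosan, 2157 (72.2%) were also 2-fold lower with DMSO, which is 68.5% of the 3148 that were 2-fold lower there (24.4% of all genes). Of the 2034 genes 2-fold higher after zymosan, 1058 (52.0%) were also 2-fold higher with DMSO, 74.8% of the 1415 found there (11% of all genes). By total counts 612 genes were 2-fold higher and 4785 lower with DMSO. The 2 comparisons share no libraries. Only 34 of the higher and 4 of the lower genes were 2-fold changed in the opposite direction with DMSO. The interaction was called for 1247 (61.3%) of the higher genes, positive for 1111 and negative for 136. It was called for 874 (29.3%) of the lower genes, positive for 324 and negative for 550. Over all genes it was positive for 28.1% and negative for 15.4%. It uses the same zymosan libraries by which these genes were picked, so these shares are not independent of that choice.

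Genes that zymosan induced in the separate wild type of set 2 were then followed. There were 2017 genes 2-fold induced there among 12395 tested in both sets (16.3%), and over all 13779 genes of set 2 the 2208 induced with TMM were 902 by total counts. After zymosan 486 of them (24.1%) were 2-fold lower and 270 (13.4%) 2-fold higher in JUNB-/- cells, against 22.4% and 15.8% of all genes tested in both sets, with a median difference of -0.05. With DMSO 707 of them (35.1%) were 2-fold lower, against 23.9% of all, with a median of -0.56. The interaction was positive for 905 (44.9%), against 29.0% of all genes. With TMM scaling the median of the induced genes lay near the wild-type level after zymosan and below it with DMSO, with members going both ways. Their medians were not computed by total counts. That scaling put the median of all genes at -0.53 after zymosan and -0.67 with DMSO, against -0.01 and -0.12 with TMM, so the level depends on the scaling.

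**Figure D4:**
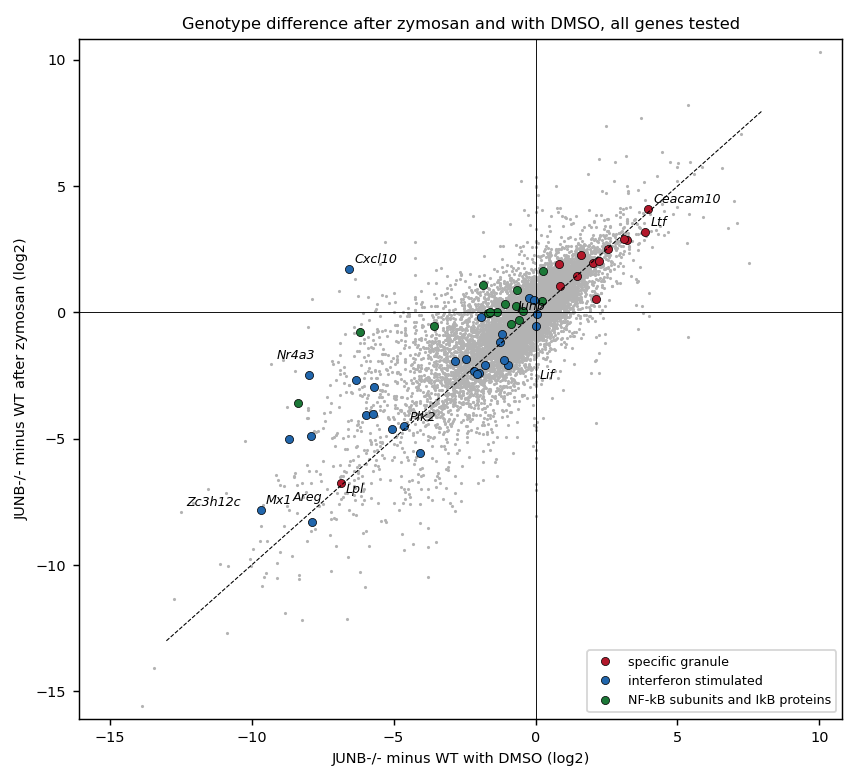
Log2 difference of JUNB-/- minus wild type after zymosan (vertical axis) against the same difference with DMSO (horizontal axis) for 12899 genes; each grey point is 1 gene, 3 lists are coloured and the dashed line marks equal differences. Specific granule genes lie near the dashed line, NF-kB subunit and IkB genes lie above it, and Cxcl10 is higher after zymosan (1.74) and lower with DMSO (-6.56); values beyond about -9 come from genes at or near 0 counts in JUNB-/- cells and depend on the model's prior count.

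Genes of glycolysis and the hypoxia response were mostly higher in JUNB-/- cells after zymosan. Of 21 glycolysis genes 18 were higher and 2 lower, against 39.1% and 37.4% of all genes. The list median was 0.80, and 0.28 by total counts, where 13 were higher and 7 lower. The glucose transporter Slc2a3 had 1101 and 1116 CPM in JUNB-/- cells and 140 and 145 CPM in wild type (2.96 ± 0.04, adjusted p = 6.9e-55), Gpi1 had 2164 and 2153 CPM against 581 and 577 CPM (1.90 ± 0.03), and Pfkfb4 was higher by 2.04. Aldoc was lower (-3.29), with 1.71 and 1.71 CPM against 16.7 and 16.9 CPM. All 13 hypoxia response genes measured were higher (median 0.65), among them Mxi1 (1.45), the mTORC1 inhibitor Ddit4 (1.37), Bnip3 (1.15) and Ankrd37 (1.09), though by total counts 7 were higher and 4 lower (median 0.13).

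Of 21 neutrophil transcription factors 16 were higher and 3 lower, against 39.1% and 37.4% of all genes. The list median was 0.85, and 0.32 by total counts, where 12 were higher and 7 lower. Nfe2 had 145 and 144 CPM in JUNB-/- cells and 23.5 and 23.7 CPM in wild type (2.61 ± 0.05, adjusted p = 3.5e-46). Mxd1, a Myc antagonist, had 5903 and 5953 CPM against 1975 and 1931 CPM in wild type, and Klf6 had 2579 and 2647 CPM against 903 and 879 CPM. Id3, an inhibitor of E proteins, was lower, with 17.9 and 20.9 CPM against 151 and 138 CPM (-2.89 ± 0.07). Of 19 survival and death genes 11 were higher, 4 of them by 2-fold or more, and 6 lower, 3 of them by 2-fold or more. The median was 0.23 with TMM and -0.29 by total counts, where 7 were higher and 12 lower. The pro-apoptotic Bbc3 (Puma), Bak1, Bid and Pmaip1 (Noxa) were higher by 1.59, 1.37, 1.29 and 1.12. By total counts they were higher by 1.07, 0.84, 0.77 and 0.60. They are named for the size of their change and do not stand for the list. Of 23 cell cycle genes 17 were lower and 2 higher (median -1.53), against 37.4% and 39.1% of all genes. The lower ones included the replication helicase subunits Mcm3 (-4.03), Mcm6 (-3.64) and Mcm5 (-2.89). Ccnd3 (cyclin D3) was one of the 2 higher cell cycle genes, with 446 and 438 CPM in JUNB-/- cells against 53.4 and 53.3 CPM in wild type (3.05 ± 0.04).

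Markers of other cell types moved with the genotype. The summed level of 11 neutrophil markers was 83580 and 86480 CPM in JUNB-/- cells and 20520 and 20860 CPM in wild type after zymosan, with all 11 higher with TMM and 10 higher and 1 lower by total counts. The 11 measured markers of eosinophils, basophils and mast cells summed to 240 and 234 CPM against 1397 and 1463 CPM in wild type, with all 11 lower. They were led by the eosinophil granule proteins Prg2, at 158 and 154 CPM against 1047 and 1099 CPM, and Epx, at 7.37 and 7.57 CPM against 218 and 238 CPM. Of 13 monocyte and macrophage markers 11 were lower, but their sum was 1748 and 1718 CPM against 1898 and 1952 CPM, with Csf1r at 546 and 544 CPM against 690 and 708 CPM. The 3 measured platelet markers summed to 4.4 and 5.3 CPM against 78.3 and 88.9 CPM, and the 5 dendritic cell markers, 3 of them lower, to 148 and 156 CPM against 217 and 218 CPM. Of 8 measured progenitor markers 2 were higher and 3 lower (median -0.003), with a sum of 94.9 and 94.0 CPM against 55.3 and 49.4 CPM. Most of the sum in JUNB-/- cells was Prtn3 (higher by 1.94), which is also in the azurophil granule list above. The sum therefore does not describe the other progenitor markers. No B cell marker was measured. The 2 of 7 T and NK cell markers measured were higher, with a mean sum of 4.36 CPM against 0.489 CPM in wild type, and the 1 of 6 erythroid markers measured was lower, at a mean of 0.939 CPM against 2.78 CPM. The markers Cd3e, Cd4, Cd8a and Xcr1 had at most 4 read pairs in any library of the 2 genotypes. These shifts lie beside the higher specific and gelatinase granule genes and the lower chemokine and interferon-stimulated genes, and their part in those results was not tested.

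**Figure D5:**
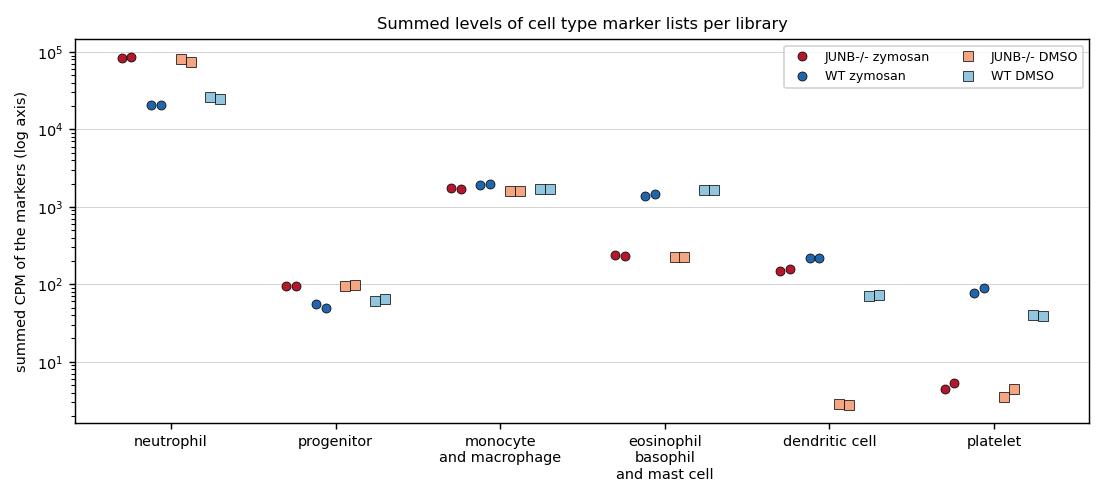
Summed TMM-scaled CPM (vertical log axis) of the measured markers of 6 cell types in each library of JUNB-/- and wild-type cells after zymosan (circles) and with DMSO (squares); each point is 1 library. Neutrophil markers sum to 83580 and 86480 CPM in JUNB-/- cells against 20520 and 20860 CPM in wild type after zymosan, and eosinophil, basophil and mast cell markers and platelet markers lie lower in JUNB-/- cells.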

How the data were processed

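RNA was measured in cultured mouse ER-Hoxb8 neutrophils by poly(A)-selected, paired-end RNA-seq. The deposited tables hold raw counts of read pairs per gene, made with featureCounts 1.6.3 at a minimum mapping quality of 255, per the file headers, on reads aligned with STAR to GRCm38, per the submitters' processing notes. In set 1, 18 of 30 columns match no sample given here or are sums, and were not used. Symbols were matched to 50376 of 50600 gene IDs (99.6%).

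The members, gene lists and tests were chosen with earlier results of these data known. Counts of all 12 set 1 libraries were fitted together with edgeR 4.0.16 (quasi-likelihood, TMM) in R 4.3.3 after filterByExpr (minimum count 10, total 15, share 0.7), which kept 12899 genes. Set 2 was fitted separately (13779 genes). Calls need a Benjamini-Hochberg adjusted p under 0.05, and 2-fold calls also a log2 difference of 1. Standard errors are the log2 difference divided by the root of the F statistic. The rule for named genes took Junb, and the 10 largest differences and 5 largest interactions each way among called genes whose log2 CPM averaged at least 4. It also took all AP-1 genes, and up to 4 called members per list by size of change at an average log2 CPM of at least 2. These were 131 genes, of which 66 were higher, 63 lower and 2 not called. 1 unnamed gene was passed over, and some single genes are not reported here. Il1b, Tnf, Cxcl2, Ebi3, Il15, Il1r2, Il1f9, Il18rap, Irf1, Isg20, Clec7a, Arg1, Icam1, Tnfaip3, Marcks, Alcam, Ndufa4l2 and the single markers were named in addition after their values were seen. The fit was tested on simulated counts in which only a small share of genes was changed, evenly up and down. Far more genes differ in these data, so the simulation does not test the scaling used here. Alternatives were RLE and total-count scaling, DESeq2 1.42.0, no filter, only the compared groups, a replicate block and each library left out. No pairing by replicate number was seen (correlations of same-numbered deviations -0.0371 to 0.0938), but with 2 libraries per group this cannot exclude one. Pairs of replicates differed by more than sampling noise (chi-square per degree of freedom 2.07 to 4.94). Plots were drawn with matplotlib 3.10.9.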

Additional observations from a re-analysis of the deposited data

Results flagged for a closer look

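For genes chosen by the size of the interaction term, the JUNB-/- minus wild-type difference after zymosan differed from that with DMSO (edgeR interaction test, 2 libraries per group). These genes were taken among called genes whose log2 CPM averaged at least 4 over the 4 zymosan libraries. Genes at lower levels with larger interactions are not ranked among them. The 5 most positive at that minimum level were Cxcl10 (8.30 on the log2 scale, adjusted p = 1.5e-50), the IL-36 ligand Il1f6 (7.45), the nuclear receptor Nr4a3 (7.25), Egr3 (6.51) and the Ras exchange factor Rasgef1b (6.06). Each was at or near 0 in JUNB-/- cells with DMSO: Il1f6 had 0 counts in both libraries against 1.22 and 1.21 CPM in wild type, Nr4a3 had 0.0336 and 0 CPM against 13.8 and 14.4 CPM, and Rasgef1b had 0.269 and 0.185 CPM against 15.3 and 16.6 CPM. Fitted sizes of this kind depend on the prior count and are no bounds. After zymosan Rasgef1b had 378 and 364 CPM in JUNB-/- cells and 384 and 372 CPM in wild type (adjusted p = 0.52), and Il1f6 had 64.8 and 67.2 CPM against 95.8 and 98.5 CPM.

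The most negative at that minimum level included Lif (-2.78), the endothelial lipase gene Lipg (-2.44), Basp1 (-2.26) and the ribosome assembly gene Mdn1 (-2.20). Lif had 2.12 and 2.23 CPM in JUNB-/- cells and 2.21 and 2.29 CPM in wild type with DMSO, and 27.4 and 31.9 CPM against 213 and 212 CPM after zymosan. Lipg was the other way round, with 95.4 and 99.4 CPM in JUNB-/- cells against 23.1 and 22.1 CPM with DMSO and 39.3 and 40.1 CPM against 50.8 and 49.8 CPM after zymosan. The cause of these differences was not tested.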

How the results depend on the processing

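Scaling by total counts gave 2829 genes higher and 7328 lower after zymosan, with 929 of the higher ones at 2-fold, and 2156 higher and 8400 lower with DMSO, with 612 and 4785 at 2-fold. In set 2 it gave 902 genes 2-fold induced and 5665 2-fold repressed by zymosan, against 2208 and 1802 with TMM. The 2-fold threshold left 2034 higher and 2986 lower after zymosan, 1415 and 3148 with DMSO, and 1149 positive and 473 negative interactions. Of the 131 named genes, Jdp2 (-0.39) and Mafg (-0.26) reversed by total counts. After zymosan, Mdn1 no longer passed without JUNB-/- replicate 2 (adjusted p = 0.12) or wild-type replicate 2 (0.0747), nor Jdp2 without wild-type replicate 2 (0.176), with RLE (0.147), DESeq2 (0.22) or only the compared groups (0.376). Rasgef1b, not called with TMM, passed as lower with RLE (0.0277), DESeq2 (0.0356), only the compared groups (0.000197) and total counts (-0.55 on the log2 scale). Leaving out each library in turn gave 4708 to 4841 higher and 4421 to 4642 lower genes after zymosan, and 2606 to 3408 positive and 1691 to 2533 negative interactions, where the single library left in a group is assumed to vary like the others. With the replicate number as a block there were 5030 higher and 4805 lower genes after zymosan, and no call of a named gene changed. RLE scaling, DESeq2, no filter and fits of only the compared groups kept the counts of calls within 1.5 times. DESeq2 gave 2514 positive and 2141 negative interactions. With 2 libraries per group, none stated to be a separate culture, the spread may be technical.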
